A study of Mus musculus with 6 samples.

Results

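Major histocompatibility complex (MHC) class I molecules were described at the transcript level through 9 genes of the 25965 rows of a mouse RNA sequencing table: the heavy chains H2-K1, H2-D1, H2-Q4, H2-Q6, H2-Q7, H2-T22, H2-T23 and H2-T24, and B2m, the light chain they share. The genes were taken by symbol because heavy chains of the H2-Q group had been seen to be higher in Cdk6 knockout lines than in wild-type lines in these same data. The difference between knockout and wild type is therefore given below as a description, with no test. Each of the 9 symbols had 1 row, and all 9 passed the low-count filter that left 10896 rows for the fit.

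The samples were 6 mouse BCR-ABL positive cell lines, in 2 groups of 3. The 3 knockout (KO) lines had received a plasmid with Cas9, GFP and guide RNAs against CDK6, a cell cycle kinase that pairs with D-type cyclins, and the 3 wild-type (WT) lines a control plasmid with Cas9 and GFP. GFP-positive cells were sorted and plated as single cells, so that each line derives from a clone, and loss of CDK6 was checked by Western blot, per the labels' protocols. All lines carry BCR-ABL, the fusion kinase of the Philadelphia chromosome, and were grown in RPMI medium with serum. Mouse strain, sex, and whether the lines of a group came from separate transfections are not stated, so the lines may not be independent replicates of the genotype. The spread between them is a spread between clones and may be partly technical.

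Class I molecules carry peptides from inside the cell to its surface, where CD8 T cells read them. The heavy chain binds the peptide and needs the light chain B2m to fold and leave the endoplasmic reticulum. H2-K1 and H2-D1 encode the classical, highly polymorphic heavy chains, while the Q and T genes encode nonclassical ones with restricted roles, such as ligands of natural killer and gamma-delta T cell receptors. Class I promoters are known to be driven by the transactivator NLRC5 with the RFX complex, by interferon response elements and by NF-kB.

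Libraries held 17859519 to 20415572 counts in KO and 19060127 to 24108563 counts in WT, so that 3 counts corresponded to 0.142 to 0.165 CPM in KO and 0.125 to 0.160 CPM in WT. CPM are read counts relative to the library total after TMM scaling. Cdk6 RNA lay at 41.3, 75.1 and 38.9 CPM in KO1 to KO3, against 39.7, 45.6 and 55.8 CPM in WT1 to WT3, so the targeted transcript was not lower on average in the libraries labelled KO, and the labels rest on the protein. KO2 stood apart from the other libraries: Xist, the RNA of the inactive X chromosome, was at 2.15 CPM there, against 727 to 1637 CPM in the other 5. A T-cell list of 6 genes had Cd3e, Cd4 and Cd8a at 0 in every library and only 1 gene, Lck, above 1 CPM in any, so that its sum is nearly the level of Lck alone. It came to 81.0, 0.462 and 46.6 CPM in KO1 to KO3, against 64.9 to 67.5 CPM in WT. WT2 deviated from its group in the direction of KO2, and results without either or both libraries are given beside those that rest on them. All 10 genes of a list of B-lineage precursor markers reached 1 CPM in at least 1 library, which need not hold in each. Their sums were 3514 to 4743 CPM in KO and 4222 to 4296 CPM in WT, lowest in KO2. For any gene in such bulk samples, fewer cells of a kind and less RNA per cell cannot be told apart.

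The sequences just upstream of the class I genes are shown for the 3 Q genes, on which the largest differences fell, for H2-D1 as a classical heavy chain and for B2m, because they place the known class I control elements beside the genes that carry the values. Of the 9 genes, 8 had an entry in the RefSeq promoter table (build GRCm38.p6), and H2-T24 did not. The 250 bases before the listed transcript start lie at chr17:35262844-35263093 (plus strand) for H2-D1, chr17:35379367-35379616 (plus) for H2-Q4, chr17:35424600-35424849 (plus) for H2-Q6, chr17:35438905-35439154 (plus) for H2-Q7 and chr2:122147437-122147686 (plus) for B2m. The listed transcript start can differ from the gene coordinates given below. The H2-Q7 window runs past the gene start at 35439140, and the H2-K1 window (chr17:34000348-34000597, minus) lies within the gene. Distances in these 2 promoters are from the listed start. Capitals mark the motifs GGGATTCCC, GAAANNGAA, GAANNGAAA, TGACG and CCAAT, or their reverse complements:
H2-D1: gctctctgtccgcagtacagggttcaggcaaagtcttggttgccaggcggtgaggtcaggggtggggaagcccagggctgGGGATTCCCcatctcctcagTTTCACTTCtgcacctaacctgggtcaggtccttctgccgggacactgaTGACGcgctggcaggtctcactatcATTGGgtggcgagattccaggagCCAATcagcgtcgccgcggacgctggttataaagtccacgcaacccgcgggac
H2-Q4: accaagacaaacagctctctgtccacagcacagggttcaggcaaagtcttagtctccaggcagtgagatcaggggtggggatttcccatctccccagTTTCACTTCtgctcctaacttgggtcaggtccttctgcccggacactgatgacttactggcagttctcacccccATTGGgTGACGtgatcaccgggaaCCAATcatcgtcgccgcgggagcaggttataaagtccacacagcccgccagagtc
H2-Q6: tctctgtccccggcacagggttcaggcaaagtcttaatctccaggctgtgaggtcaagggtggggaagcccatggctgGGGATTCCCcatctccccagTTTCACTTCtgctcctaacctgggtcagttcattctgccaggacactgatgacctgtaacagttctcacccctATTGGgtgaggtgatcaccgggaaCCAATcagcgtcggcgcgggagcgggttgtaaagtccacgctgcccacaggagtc
H2-Q7: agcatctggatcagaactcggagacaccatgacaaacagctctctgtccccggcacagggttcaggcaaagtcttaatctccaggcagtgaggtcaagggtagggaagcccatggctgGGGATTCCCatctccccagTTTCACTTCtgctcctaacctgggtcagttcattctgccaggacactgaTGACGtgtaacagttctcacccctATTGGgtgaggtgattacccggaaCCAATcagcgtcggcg
B2m: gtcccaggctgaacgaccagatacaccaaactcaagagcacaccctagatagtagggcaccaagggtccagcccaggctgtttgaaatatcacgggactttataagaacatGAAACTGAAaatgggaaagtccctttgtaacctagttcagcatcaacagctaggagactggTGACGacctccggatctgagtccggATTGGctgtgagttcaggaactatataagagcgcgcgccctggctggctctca

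Motifs were searched on both strands, and a match is a description, not a shown binding site. GGGATTCCC, the core of the class I NF-kB element, was found in 4 of the 8 promoters (H2-K1, H2-D1, H2-Q6 and H2-Q7), against 0.301% of 32851 promoters of the same length. GAAANNGAA, a part of the interferon response element, was found in H2-T22, H2-T23 and B2m (7.13% of all promoters). The same part in the other order, GAANNGAAA, was added after the sequences had been seen and was found in H2-K1, H2-D1, H2-Q4, H2-Q6 and H2-Q7, each time as TTTCACTTC on the reverse strand (6.31% of all promoters). GAANNGAAA was thus held by the classical and Q genes, and GAAANNGAA by H2-T22, H2-T23 and B2m. GGGATTCCC was held by the classical genes, H2-Q6 and H2-Q7, but not by H2-Q4. Only these exact letters were searched, so near matches were not counted. TGACG, letters that occur in the X2 box, was found in 6 of 8 (all but H2-Q6 and H2-T23, 17.8% of all promoters). CCAAT, letters that occur in the Y box, was found in 8 of 8 (33.8% of all promoters). In H2-T23, where TGACG was absent and CCAAT had 1 match, the letters alone do not show a Y box. The search did not use position. In H2-D1, TGACG began 101 bases before the start, upstream of ATTGG, the reverse complement of CCAAT, at 76. It was also upstream of ATTGG in H2-K1, H2-Q7 and B2m. In H2-Q4 it began at 73, downstream of ATTGG at 79, and in H2-T22 at 22, downstream of CCAAT at 63. The letters alone thus do not show an X2 box in H2-Q4 or H2-T22. The windows of H2-Q6 and H2-Q7 were nearly the same sequence, 97.2% identical over 211 aligned positions, whereas H2-Q4 and H2-Q6 were 82.9% identical over 251 and H2-K1 and H2-D1 87.4% over 190.

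The heavy chains H2-Q6 and H2-Q7, which with their close copies encode the Qa-2 antigen, had the largest fold changes among the 9. H2-Q6 (chromosome 17, 35424850 to 35430055) lay at 63.0, 52.3 and 30.9 CPM in KO1 to KO3, against 1.08, 14.5 and 2.97 CPM in WT1 to WT3. Every KO library was above every WT library, and the lowest KO value was 2.13 times the highest WT value, which came from WT2. The means were 48.7 ± 16.3 CPM in KO and 6.20 ± 7.29 CPM in WT (SD, n = 3 each), with a log2 fold change of 2.98 ± 0.97 (SE from edgeR; 95% interval 0.57 to 5.39). In WT1 the H2-Q6 value rested on 26 counts (exact Poisson interval 0.708 to 1.59 CPM, counting error only), while WT2 held 273. Without WT2 the log2 fold change was 4.59, and without WT2 and KO2 it was 4.56.

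H2-Q7 (chromosome 17, 35439140 to 35443773) lay at 45.9, 9.80 and 33.4 CPM in KO1 to KO3, against 1.34, 5.43 and 4.16 CPM in WT1 to WT3. Here KO2 was the lowest KO library, at 1.80 times the highest WT library, and the groups did not overlap. The means were 29.7 ± 18.4 CPM in KO and 3.64 ± 2.10 CPM in WT (SD, n = 3 each), with a log2 fold change of 3.03 ± 0.76 (SE; 95% interval 1.14 to 4.92). Leaving out KO2 gave 3.46, and leaving out WT2 and KO2 gave 3.88. Of the 10896 genes fitted, 5 had a higher log2 fold change than H2-Q7 and 7 a higher one than H2-Q6. Since the rise of H2-Q genes in this same contrast led to their choice, these ranks restate it and are a description only.

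H2-Q4 (chromosome 17, 35379617 to 35384674), which encodes the nonclassical antigen Qb-1, lay at 82.4, 64.1 and 56.0 CPM in KO1 to KO3, against 34.7, 43.6 and 34.5 CPM in WT1 to WT3. The groups did not overlap, and both varied less than for the other Q genes: the highest library was 1.47 times the lowest in KO and 1.26 times in WT. The means were 67.5 ± 13.5 CPM in KO and 37.6 ± 5.17 CPM in WT (SD, n = 3 each), with a log2 fold change of 0.84 ± 0.18 (SE).

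**Figure D1:**
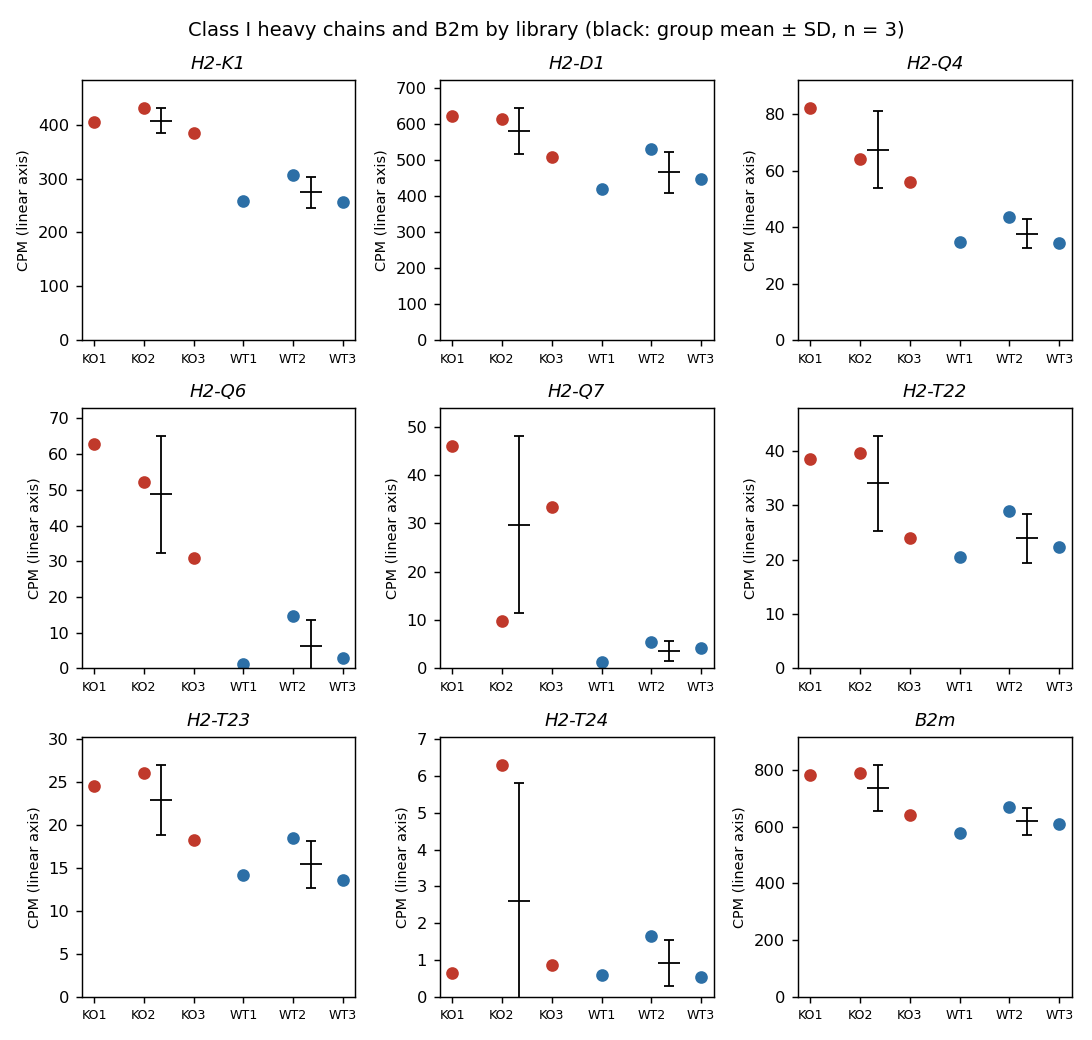
Each panel gives 1 gene with its CPM on a linear axis from 0, 1 point per library, KO in red left of WT in blue, and the group mean ± SD in black (n = 3 each; error bars that pass below 0 are cut at the axis). The groups do not overlap for H2-K1, H2-Q4, H2-Q6 and H2-Q7, and H2-T24 is high in KO2 alone, at 6.31 CPM.

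The classical heavy chain H2-K1 (chromosome 17, 33996012 to 34000619) lay at 405.0, 432.5 and 385.8 CPM in KO1 to KO3, against 259.5, 307.1 and 256.8 CPM in WT1 to WT3. All KO libraries were above all WT libraries, by at least 1.26 times. The means were 407.8 ± 23.5 CPM in KO and 274.5 ± 28.3 CPM in WT (SD, n = 3 each), with a log2 fold change of 0.57 ± 0.09 (SE; 95% interval 0.34 to 0.80), the narrowest interval of the 9 genes. H2-D1 (chromosome 17, 35263094 to 35267497), the other classical heavy chain, lay at 622.8, 612.7 and 507.3 CPM in KO1 to KO3, against 419.6, 529.6 and 446.2 CPM in WT1 to WT3. KO3 was below WT2, so that the groups overlapped. The means were 581 ± 64.0 CPM in KO and 465.1 ± 57.4 CPM in WT (SD, n = 3 each), with a log2 fold change of 0.32 ± 0.13 (SE).

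B2m (chromosome 2, 122147687 to 122153082) lay at 779.8, 787.5 and 641.6 CPM in KO1 to KO3, against 576.3, 668.6 and 608.2 CPM in WT1 to WT3. As for H2-D1, KO3 was below WT2. The means were 736.3 ± 82.1 CPM in KO and 617.7 ± 46.9 CPM in WT (SD, n = 3 each), with a log2 fold change of 0.25 ± 0.11 (SE; 95% interval -0.009 to 0.52), the smallest of the 9.

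Among the T genes, H2-T23, which encodes Qa-1, a ligand of the CD94 and NKG2A receptor, lay at 24.5, 25.9 and 18.2 CPM in KO1 to KO3, against 14.1, 18.5 and 13.6 CPM in WT1 to WT3. KO3 lay at 0.984 times WT2, and the groups overlapped by that pair only. The log2 fold change was 0.57 ± 0.20 (SE). H2-T22, a ligand of some gamma-delta T cell receptors, lay at 38.5, 39.7 and 24.0 CPM in KO1 to KO3, against 20.4, 29.0 and 22.4 CPM in WT1 to WT3. KO1 and KO2 were above all WT libraries and KO3 lay within the WT range, with a log2 fold change of 0.51 ± 0.24 (SE; 95% interval -0.095 to 1.11).

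H2-T24 was the gene at the lowest level and the only one of the 9 in which a single library set the direction. It lay at 0.659, 6.31 and 0.851 CPM in KO1 to KO3, against 0.584, 1.65 and 0.544 CPM in WT1 to WT3, from 12, 123 and 18 counts in KO and 14, 31 and 11 counts in WT. The log2 fold change of 1.49 ± 1.04 (SE) was -0.28 without KO2, 2.20 without WT2 and 0.42 without both. A list of 3 natural killer cell markers had Ncr1 at 0 in every library and only 1 gene, Klrb1c, above 1 CPM in any, so that its sum is nearly the level of Klrb1c alone. This list also summed highest in KO2, to 25.8, 80.5 and 10.21 CPM in KO1 to KO3, against 14.1 to 22.1 CPM in WT, and its part in the H2-T24 value was not tested.

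**Figure D2:**
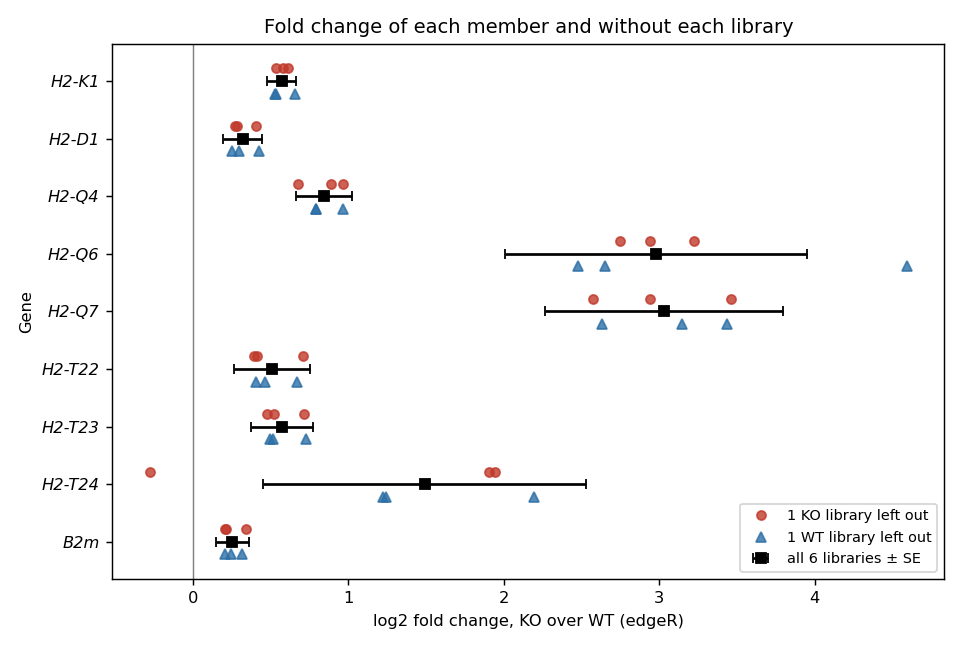
Black squares give the log2 fold change of KO over WT with its SE for each gene (edgeR, 6 libraries), red circles the values with 1 KO library left out and blue triangles those with 1 WT library left out. H2-T24 moves to -0.28 without KO2 and H2-Q6 to 4.59 without WT2, while H2-K1 stays between 0.53 and 0.66.

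In all, 9 of 9 log2 fold changes were above 0, as were 52.8% of the 10896 fitted genes, and their median was 0.57, against 0.015 over all fitted genes. Groups did not overlap, with every KO library higher, for 4 of 9 genes (H2-K1, H2-Q4, H2-Q6 and H2-Q7), and the same held for 8.58% of fitted genes, while 11% were lower in every KO library. With CPM scaled by library totals alone the count was 7 of 9 (H2-D1, H2-T23 and B2m were added), where 1153 of the 10896 fitted genes were higher and 946 lower in every KO library, against 935 higher and 1200 lower with TMM scaling. Without WT2 it was 9 of 9, and without KO3 it was 8. The share of all fitted genes was not computed for these smaller sets, in which separation is easier by construction. These 2 counts therefore have no background to be read against. The edgeR quasi-likelihood test called 0% of the 10896 genes at an adjusted p under 0.05 (1030 had an unadjusted p under 0.05), and limma-voom called 0 (1041 unadjusted). DESeq2 called 1.94% of 11212 genes (0.705% higher in KO), among them H2-K1, H2-Q4, H2-Q6 and H2-Q7. Since the genes were chosen by this contrast, nothing is read from these shares.

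Within each group, most of the genes shared the library at one end of the range. KO3 was the lowest KO library for 7 of 9 genes, while for H2-Q7 it was KO2 and for H2-T24 KO1. On the log2 scale, WT2 was the highest WT library for 9 of 9 genes, from 0.12 above the WT mean for B2m to 1.96 for H2-Q6. The median deviation of the 9 genes from the WT mean was 0.68 in KO1, 0.76 in KO2 and 0.25 in KO3, against -0.14, 0.28 and -0.09 in WT1 to WT3, so that the median of KO3 lay slightly below that of WT2.

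**Figure D3:**
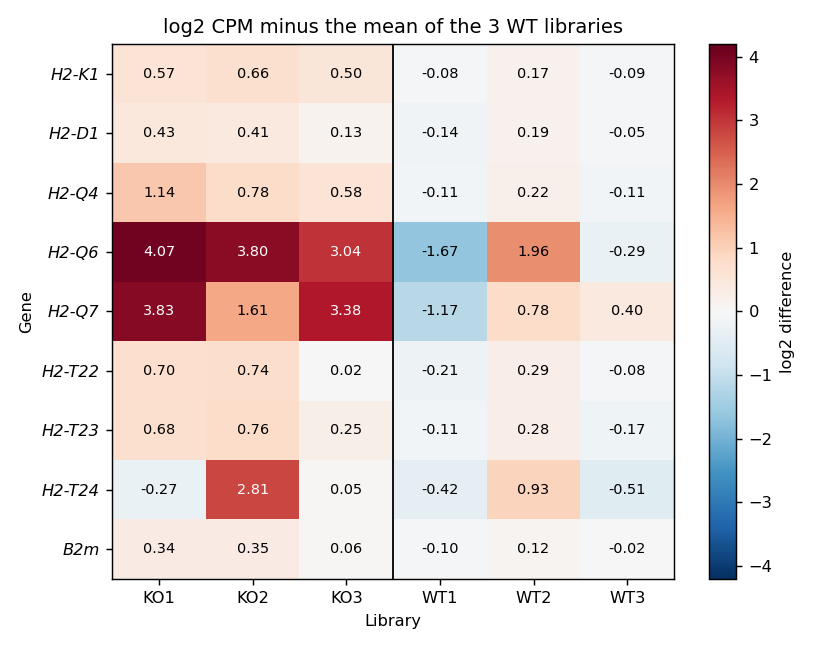
Each cell gives the log2 CPM (prior count 2) of 1 gene in 1 library minus the mean of the 3 WT libraries, red above and blue below it, with KO libraries left of the line. H2-Q6 reaches 4.07 in KO1 and 1.96 in WT2, and KO3 is the lowest KO library for 7 of the 9 genes.

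Pairs of the 9 genes differed in how closely they moved across the 6 libraries, which share their depth and scaling and hold the group difference that chose the genes. The Pearson correlation of log2 CPM was 0.99 for B2m and H2-T22 and 0.98 for B2m and H2-D1, 0.88 for H2-Q6 and H2-Q7 and 0.07 for H2-Q7 and H2-T24 (n = 6 each, described with no p). B2m thus followed H2-D1 and H2-T22 more closely than H2-Q7 (0.66). Of the other genes, the 5 closest to H2-Q7 were H2-DMa, which encodes a chain of the class II peptide loading factor, Vars2, Kif24, AU022252 and Cbx7 (r = 0.98 to 0.99 over 6 libraries, among 9997 genes). Rad51l3, Slc43a3, Sertad2 and B3gntl1 were the 4 closest to H2-K1 (r = 0.98 to 1.00), and the 5 closest to B2m were Gpsm3, Ech1, Cenpt, Btbd19 and Ddx25 (r = 0.98 to 0.99). With scaling by library totals alone, 2 of the 5 for H2-Q7 and 4 of the 5 for B2m were still among the 5 closest.

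Ratios and shares of counts within a library do not depend on how libraries are scaled. The counts of the 8 heavy chains together were 1.65, 1.58 and 1.65 times those of B2m in KO1 to KO3, against 1.30, 1.42 and 1.28 times in WT1 to WT3. The ratio was higher in every KO library than in any WT library, with means of 1.62 ± 0.04 in KO and 1.34 ± 0.07 in WT (SD, n = 3 each). It is a ratio of counts not corrected for length. The summed heavy-chain level, in CPM after TMM scaling, is not such a ratio and does depend on the scaling. It was 1283, 1243 and 1056 CPM in KO1 to KO3, against 751.4, 949.3 and 781.1 CPM in WT1 to WT3.

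The make-up of the heavy-chain counts also differed. The 3 Q genes held 14.9%, 10.15% and 11.4% of them in KO1 to KO3, against 4.94%, 6.69% and 5.33% in WT1 to WT3. H2-K1 and H2-D1 together held 82.9 ± 2.42% in KO and 89.5 ± 1.21% in WT, and the 3 T genes 4.94 ± 0.85% in KO and 4.84 ± 0.29% in WT (SD, n = 3 each). The Q share was higher in every KO library than in any WT library and the share of the classical pair lower, while the T shares overlapped. Between the classical genes, H2-K1 held 39.4%, 41.4% and 43.2% of their joint counts in KO1 to KO3, against 38.2%, 36.7% and 36.5% in WT1 to WT3. The 95% Wilson intervals ran from 38.7 to 40.1% in KO1 and from 37.5 to 39.0% in WT1, the closest libraries of the groups.

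H2-Q6 and H2-Q7 did not keep 1 ratio across libraries. H2-Q6 held 57.8%, 84.2% and 48.1% of their joint counts in KO1 to KO3, against 44.8%, 72.8% and 41.7% in WT1 to WT3. The share was highest in KO2 (Wilson interval 82.1 to 86.2%) and WT2 (68.1 to 77.1%), above the intervals of the other 4 libraries. The groups overlapped, and in each of the 3 same-numbered pairs the share was higher in KO than in WT. The labels give no shared culture for such pairs. Together the pair lay at 108.9, 62.1 and 64.3 CPM in KO1 to KO3, against 2.42, 20.0 and 7.12 CPM in WT1 to WT3.

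**Figure D4:**
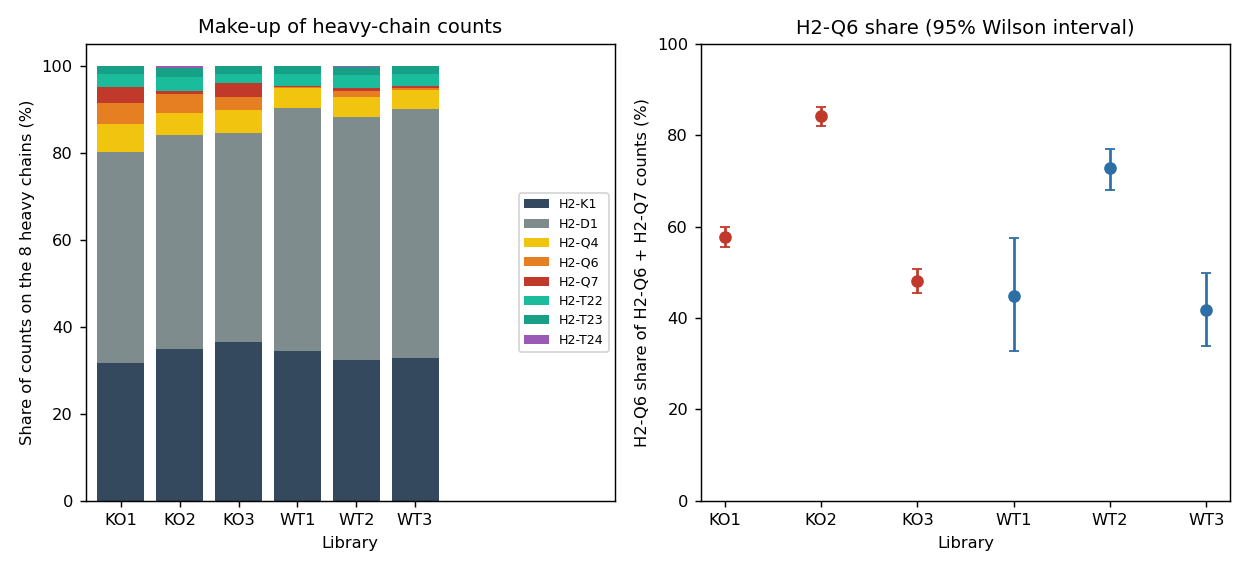
Left, the share of each heavy chain in the counts of the 8 heavy chains per library (stacked to 100%); right, the share of H2-Q6 in the counts of H2-Q6 and H2-Q7 with 95% Wilson intervals, KO in red and WT in blue. The 3 Q genes hold 10.15 to 14.9% in KO and 4.94 to 6.69% in WT, and the H2-Q6 share is highest in KO2 and WT2.

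Near-identical copies could share reads, and how such reads were counted is not given in the sources used here. The coding sequences of H2-Q6 and H2-Q7 were 93.1% identical in GENCODE M21 and those of H2-K1 and H2-D1 88.3%, while H2-T24 reached 54.3 to 60.1% with the other heavy chains. Cut into windows of 50 bases, transcripts of B2m shared 0 windows with another gene, and 96.8% of windows of H2-T24, 91.2% of H2-K1 and 85.7% of H2-D1 were found in no other gene. The share was 75.7% for H2-Q4, 71.2% for H2-T23, 68% for H2-Q6, 59.8% for H2-Q7 and 55.3% for H2-T22. H2-Q6 shared 13.9% of its windows with H2-Q7, H2-Q7 shared 20.1% with H2-Q5 and H2-T22 37.9% with H2-T10. Neither H2-Q5 nor H2-T10 had a row under that symbol in the deposited counts. These percents do not measure the error of the counts, and how far shared reads affect the values is not known. With H2-Q6 and H2-Q7 summed as 1 row the log2 fold change was 3.00 (edgeR), close to that of each alone.

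**Figure D5:**
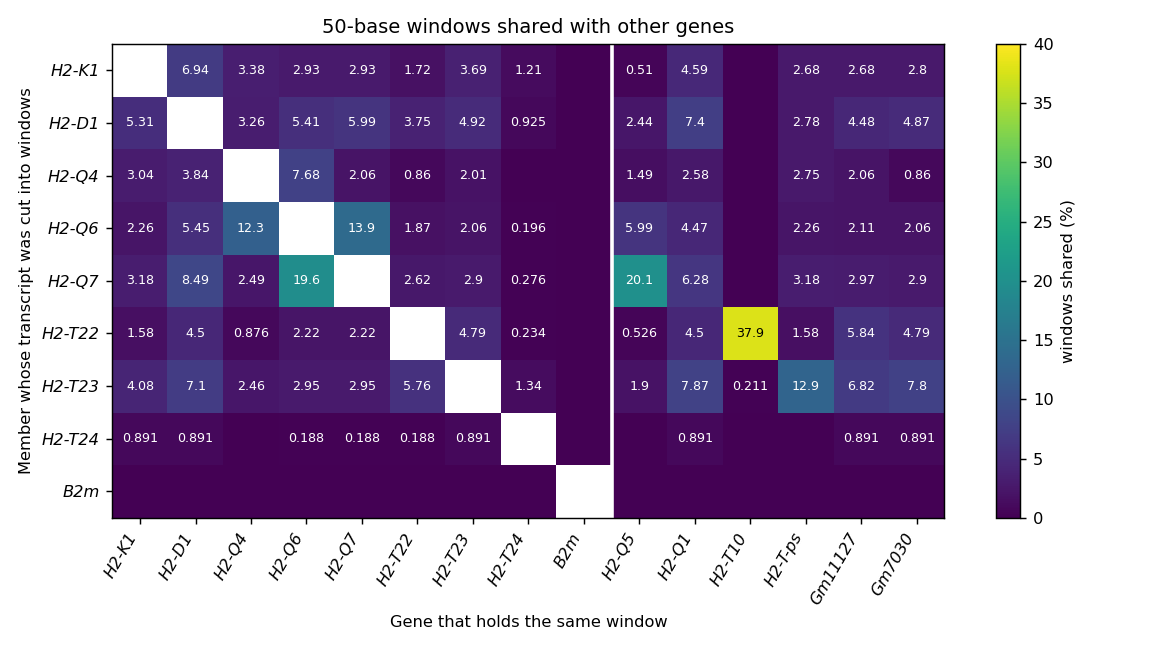
Rows are the 9 genes and columns the genes that hold the same windows, the 9 genes left of the white line and 6 others right of it. Numbers are the percent of a row gene's 50-base windows found in the column gene. The highest is 37.9% for H2-T22 in H2-T10, and the B2m row is empty.

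Levels between genes were compared as CPM per kilobase of the longest annotated transcript. In KO the order was B2m (856 ± 95.5), H2-D1 (276 ± 30.4), H2-K1 (218 ± 12.5), H2-Q4 (26.0 ± 5.21), H2-Q6 (23.4 ± 7.83), H2-T22 (11.1 ± 2.85), H2-T23 (8.66 ± 1.56), H2-Q7 (7.06 ± 4.36) and H2-T24 (1.19 ± 1.47; SD, n = 3). The ranges of H2-Q4 and H2-Q6 overlapped, as did those of H2-T22, H2-T23 and H2-Q7 and those of H2-Q7 and H2-T24. In WT the order was B2m (718 ± 54.5), H2-D1 (221 ± 27.3), H2-K1 (147 ± 15.1), H2-Q4 (14.5 ± 1.99), H2-T22 (7.82 ± 1.47), H2-T23 (5.83 ± 1.02), H2-Q6 (2.97 ± 3.50), H2-Q7 (0.865 ± 0.498) and H2-T24 (0.425 ± 0.288). There, H2-T22 overlapped with H2-T23, H2-Q7 with H2-T24, and H2-Q6 with all 4 of them. With this length H2-Q6 held place 5 in KO and place 7 in WT. With the median transcript length it held place 4 in KO, above H2-Q4 (31.8 ± 10.7 for H2-Q6 and 30.8 ± 6.17 for H2-Q4), and place 7 in WT, and H2-Q7 held place 6 in KO and place 8 in WT. With that length H2-D1 ranked above B2m in both groups, at 1036 ± 114 and 856 ± 95.5 in KO and 829 ± 102 and 718 ± 54.5 in WT. The median length of H2-D1 (561 bases) is shorter than its coding sequence (1086 bases). The same holds for H2-K1 (861.5 and 1107 bases). Their levels by median length are therefore too high, and the rank of H2-D1 above B2m is not read as a result.

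Other genes of the class I pathway were read from a list of 30, covering peptide transport, the immunoproteasome, the loading complex, interferon signalling and transcription factors of class I genes. All 30 were tested, and 0 passed the edgeR test in either direction. The list held 22 positive log2 fold changes with a median of 0.26, and 5 of the 30 had every KO library above every WT library, beside 8.58% of all fitted genes. Rfx5, a subunit of the RFX complex, lay at 46.2, 35.7 and 52.3 CPM in KO1 to KO3, against 26.8, 23.6 and 27.2 CPM in WT1 to WT3 (log2 fold change 0.79 ± 0.16, SE; edgeR adjusted p = 0.479). Stat2, which carries the interferon signal, had a log2 fold change of 0.45 ± 0.14, and the interferon receptor chain Ifnar1 one of 0.27 ± 0.09 (SE; edgeR adjusted p = 0.482 and 0.494). The groups of these 3 genes did not overlap.

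Chosen after their values had been seen, Nlrc5, the class I transactivator, and Tap1, a chain of the peptide transporter, are given because of their known place in the pathway. Nlrc5 lay at 133.1, 246.2 and 113.4 CPM in KO1 to KO3, against 71.3, 127.1 and 86.9 CPM in WT1 to WT3 (log2 fold change 0.79 ± 0.36, SE; edgeR adjusted p = 0.554). As for H2-D1 and B2m, KO3 was below WT2, and WT2 was the highest WT library. Tap1 lay at 136.1, 153.5 and 117.7 CPM in KO1 to KO3, against 74.8, 119.4 and 80.6 CPM in WT1 to WT3 (0.57 ± 0.21, SE; edgeR adjusted p = 0.512), again with KO3 below WT2.

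Of 31 other class I and class I-like heavy chains, 22 had a row and 4 were tested, of which 0 passed edgeR. H2-M3, which presents peptides with an N-formyl group, lay at 26.7, 25.1 and 29.7 CPM in KO1 to KO3, against 18.02, 19.3 and 16.9 CPM in WT1 to WT3 (log2 fold change 0.59 ± 0.12, SE; edgeR adjusted p = 0.479). Mr1, which presents vitamin B metabolites, lay at 11.3, 9.59 and 12.1 CPM in KO1 to KO3, against 8.09, 8.25 and 7.52 CPM in WT1 to WT3 (0.47 ± 0.16, SE; edgeR adjusted p = 0.499). Both had every KO library above every WT library (2 of the 4 tested), beside 8.58% of all fitted genes. The lipid-presenting Cd1d1 and Hfe, a regulator of iron uptake, were lowest in KO2, at 1.69 and 0.103 CPM, and had log2 fold changes of -0.22 ± 0.80 and -0.66 ± 1.32 (SE; edgeR adjusted p = 0.951 and 0.895).

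The heavy chains lie within the MHC of chromosome 17, so neighbouring genes were read beside them. Between 33908182 and 37590351 of chromosome 17, 73 fitted genes outside the H2 family and the lists had a median log2 fold change of 0.02. Of these 73, 8 had every KO library above every WT library and 6 every KO library below, beside 8.58% and 11% of all fitted genes. Their median deviation from the WT mean was 0 in KO1, 0.07 in KO2 and -0.03 in KO3. For the 9 class I genes, which unlike the neighbours were chosen by this contrast, it was 0.68, 0.76 and 0.25 in the same libraries.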

How the data were processed

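The authors deposited raw counts per gene symbol, 1 column per library. The tools named in the submitters' processing notes are STAR, Trim Galore and DESeq2, and the build is GRCm38. Roles, versions, counting program, annotation and strandedness: not given in the sources used here. RNA was total RNA prepared with a TruSeq kit, per the labels' protocols.

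From these counts, edgeR 4.0.16 in R 4.3.3 (TMM, filterByExpr, robust quasi-likelihood F test, two-sided, Benjamini-Hochberg adjusted p under 0.05 over all tested rows) was fitted to all 6 libraries by genotype, and tested on simulated data. Log2 CPM used a prior count of 2. Alternatives were RLE factors, library totals, DESeq2 1.42.0, limma-voom (limma 3.58.1), other low-count filters (none, or 1 CPM in 3 libraries), no robust estimates, summed paralogs, a replicate block, and fits without libraries. The genes and lists were chosen with earlier results of these data known. Named genes were the 9 genes, Cdk6, up to 4 genes of each list with the smallest unadjusted p, and the 5 genes closest to H2-Q7, H2-K1 and B2m by Pearson correlation, given a mean log2 CPM of 1 or more. A pair of genes that this rule names is not reported here. The same replicate numbers occur in KO and WT. Deviations from the group mean correlated at 0.33, 0.64 and 0.46 for same-numbered libraries, each above 0.1. Differently numbered libraries reached 0.36 (KO1 and WT3) and 0.41 (KO3 and WT1), so these values do not single out same-numbered pairs. The remaining pairs, each with KO2 or WT2, lay at -0.45 to -0.58. The labels give no shared culture. Identity was computed on coding sequences of GENCODE M21, not on proteins. Gene coordinates and promoters came from RefSeq (GRCm38.p6). Shares have 95% Wilson intervals and low values exact Poisson intervals, which cover counting error only, since reads without molecular identifiers are not independent molecules.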

Additional observations from a re-analysis of the deposited data

How the results depend on the processing

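Of 160 alternative values of the 9 log2 fold changes, 155 stayed within 1 SD of the spread between libraries with the same direction. H2-Q6 moved to 4.59 without WT2, 4.56 without WT2 and KO2 and 4.54 in DESeq2 without both, and H2-T24 reversed to -0.275 without KO2 and -0.283 in DESeq2 without KO2, and was at 2.196 without WT2; H2-T24 was removed by the filter of 1 CPM in 3 libraries. The median of the 9 genes lay between 0.48 and 0.73 with single libraries left out and at 0.62 without WT2 and KO2. With the replicate block the median was 0.57, and H2-Q6 and H2-Q7 were at 3.58 and 2.96; the block called 0 genes and changed no call. DESeq2 called 218 genes over all libraries, 684 without KO2 and 340 without WT2 and KO2, where edgeR called 0 in every alternative run, with 408 to 2080 genes at an unadjusted p under 0.05 when single libraries were left out. In the list of 30 pathway genes DESeq2 called 1 higher in KO (Rfx5), beside 1.94% of all 11212 genes in either direction. Without KO2 it called 3 of the list (Rfx5 higher, Hspa5 and Nfkb1 lower in KO). Without WT2 and KO2 it called 5 (Tap1, Tap2, Nlrc5, Rfx5 and Irf8, all 5 higher in KO). Among the other heavy chains it called 1 in each of these fits (H2-M3, higher in KO). The share of all genes called was not computed for the fits without libraries, so nothing is read from these list counts. The number of the 9 genes with every KO library above every WT library was 7 with library totals, 9 without WT2 and KO2, and 4 to 9 with single libraries left out. Fewer libraries make separation easier by construction, and the share of all fitted genes was not computed for those sets. Levels per kilobase moved beyond 1 SD for 12 of 18 values with the median transcript length. Shares of heavy-chain counts moved for 2 of 16 with all class I rows as the total. The cause of these changes was not tested. DESeq2 without single or paired libraries and the counts of separated groups were chosen after seeing the data. With 3 libraries a group, the smallest p of an exact permutation test is 0.1. H2-T24, at 11 to 31 counts outside KO2, is limited by depth.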
